A study of Sus scrofa with 34 samples.

Results

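The genes described here are 7 pig genes, GAREM2, HS3ST2, PIWIL2, GABRQ, PAX2, PLEKHG6 and TPPP, out of 25880 genes in the liver and ileum count tables. They were selected on these libraries, as genes low in control liver and higher in the liver of pigs fed oxidized oil, so the difference between oxidized oil and control describes how they were chosen and is given without p-values. Liver and ileum came from weaned crossbred piglets at day 28, which the labels give as the age and the study's methods count from the start of the diets. Pigs were fed a basal diet (control), the basal diet with a phytogenic feed additive of plant extracts and essential oils (PFA), a diet containing rapeseed oil oxidized by heating (OO), or that oil diet with PFA (OO + PFA). Liver was sequenced in 6 pigs of each diet, and pig OP-77 of OO + PFA, which the study left out for suspected RNA degradation, was left out of the fits and group means given here. A pig's name joins its number to C (control), P (PFA), OO or OP, the last standing for OO + PFA. Ileum was sequenced in 5 control and 5 PFA pigs, all of which also gave a liver library, and ileum of pigs fed oxidized oil was not analysed here. The study housed all pigs of a diet in 1 pen, so effects of the pen and of the diet cannot be told apart, and the oxidized oil diets also held more oil than the others.

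The name under which these genes were grouped, near-silent in liver, held for most of them and not for GABRQ. In control liver, mean levels in CPM (counts scaled to the size of the library) were 0.0198 for HS3ST2, 0.0247 for PIWIL2, 0.392 for GAREM2, 0.551 for PAX2, 0.554 for PLEKHG6 and 1.23 for TPPP. GABRQ stood at 10.2 ± 4.97 CPM (SD, n = 6), near the median of 11.2 CPM over the genes tested in liver. Of the 1753 tested genes with a control mean below 1 CPM, 26 were called higher with OO by edgeR, and 5 of the 7 genes were among them.

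The 7 genes belong to unrelated families. GAREM2 is an adaptor of the GAREM family, whose better known relative carries signals from the epidermal growth factor receptor to the MAP kinase cascade through GRB2. HS3ST2 is one of the sulfotransferases that add the rare 3-O-sulfate to heparan sulfate chains and is known mainly from brain. PIWIL2 is an Argonaute protein of the germ line that binds PIWI-interacting RNAs and silences transposons. GABRQ is the theta subunit of the GABA-A receptor, a chloride channel of neurons. PAX2 is a paired-box transcription factor of the developing kidney. PLEKHG6 is a guanine nucleotide exchange factor for small GTPases and is known from epithelia, and TPPP binds and bundles microtubules and is best known from oligodendrocytes. In hepatocytes, fatty acids and their oxidation products are ligands of PPARα, a nuclear receptor that controls genes of mitochondrial and peroxisomal fatty acid oxidation.

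The start regions of the 7 genes differed in base composition. RefSeq sequence of Sscrofa11.1 from 250 bases before to 50 bases from the annotated start was read for each gene, and the start used in liver was not measured. In these 300 bases GAREM2 held 41 CpG dinucleotides, TPPP 38, HS3ST2 37 and GABRQ 18, against a median of 16 over 19501 promoters. PLEKHG6 held 6, PIWIL2 5 and PAX2 4. Thus CpG-rich and CpG-poor starts were both present among genes that were higher with oxidized oil. The 2 lowest members of control liver, HS3ST2 and PIWIL2, are shown because one is CpG-rich and the other CpG-poor, in lower case with each CpG in capitals.
HS3ST2, chr3:23366521-23366820, minus strand: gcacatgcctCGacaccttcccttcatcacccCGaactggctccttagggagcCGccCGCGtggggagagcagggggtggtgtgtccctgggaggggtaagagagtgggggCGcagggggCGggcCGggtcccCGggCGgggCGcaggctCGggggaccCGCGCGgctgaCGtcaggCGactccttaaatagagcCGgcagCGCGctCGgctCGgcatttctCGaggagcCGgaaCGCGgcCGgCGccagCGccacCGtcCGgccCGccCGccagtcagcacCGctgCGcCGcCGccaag
PIWIL2, chr14:6560152-6560451, plus strand: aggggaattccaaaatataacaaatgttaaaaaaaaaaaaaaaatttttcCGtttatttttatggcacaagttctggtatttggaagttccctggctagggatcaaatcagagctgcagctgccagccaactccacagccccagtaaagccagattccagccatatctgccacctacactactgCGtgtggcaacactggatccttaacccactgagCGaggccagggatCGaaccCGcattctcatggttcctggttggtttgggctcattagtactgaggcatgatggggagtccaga

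Short motifs were searched on both strands of the same 300 bases. The nuclear receptor core site AGGTCA, present in 14.1% of all promoters, was in none of the 7, nor was the DR1 element, a direct repeat of AGGTCA with 1 free base between the copies (0.0308% of all promoters). TATAAA (10.9%) and the antioxidant response element core TGACNNNGC (12.3%) were also absent from these windows. CANNTG, the E-box, was in 6 of the 7 and in 67.8% of all promoters.

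The genes lie on 5 chromosomes and the X chromosome is one of them. On Sscrofa11.1, GAREM2 (ENSSSCG00000008572) spans chr3:112799350-112817583 and HS3ST2 (ENSSSCG00000036475) chr3:23255936-23366570, both on the minus strand. PIWIL2 (ENSSSCG00000030228) spans chr14:6560402-6632524 and PAX2 (ENSSSCG00000010556) chr14:111822334-111914950, both on the plus strand. GABRQ (ENSSSCG00000012755) spans chrX:123834884-123855187 on the plus strand and TPPP (ENSSSCG00000032698) chr16:79535037-79556383 on the plus strand. PLEKHG6 (ENSSSCG00000000709) spans chr5:64331467-64350680 on the minus strand. All 7 are annotated as protein-coding and their RefSeq exons total from 2335 bases in HS3ST2 to 7315 bases in GABRQ.

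Between 18738055 and 42446834 read pairs per library were counted on genes. At these depths 3 counts equal 0.0707 to 0.16 CPM in liver, so the control levels of HS3ST2 and PIWIL2 lie at or under the limit of what could be counted. All 7 genes passed the filter on low counts in liver, but HS3ST2 and PIWIL2 did not pass it in the control and PFA livers alone, that is, they passed through the groups in which they were high. No pair of libraries within a group was identical among 80 pairs. The sum of the hepatocyte markers was high in every liver, though SERPINA1 among them was low. Albumin (ALB) was at 85780 CPM ± 22080 (SD, n = 6) in control liver, against 0.0681 CPM ± 0.0629 (SD, n = 5) in control ileum.

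GAREM2 went from at most 15 read pairs in each control liver to at least 59 in each OO liver. In control liver it ranged from 0.269 to 0.54 CPM with a median of 0.39 (6 to 15 read pairs per pig). In OO liver it ranged from 2.23 to 29.8 CPM with a median of 7.95 (59 to 509 read pairs). Pig OO-130 was highest, 2.17 times the next pig, and the lowest OO pig still lay above every control pig. The fitted difference was 4.76 ± 0.59 on the log2 scale (SE). In bulk liver, here and for the other genes, a change in the number of cells that hold an RNA and a change in RNA per cell cannot be told apart.

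HS3ST2 was counted 4 times in all 6 control livers together, with 0 read pairs in 3 of them and at most 2. In OO liver the 6 pigs had 6 to 33 read pairs, or 0.189 to 1.93 CPM with a median of 0.329. Each OO pig had more than every control pig, and pigs OO-130 and OO-102, with 1.93 and 0.914 CPM, stood above the other OO pigs. The ratio of the pooled counts was 24.6, with an exact 95% interval of 9.25 to 92.2 that covers counting error only. The study also measured HS3ST2 in these livers by quantitative PCR. It states that sequencing and PCR seemed to match only in part for higher fold changes, and names HS3ST2 in the OO diet.

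PIWIL2 was also counted 4 times in control liver, with at most 2 read pairs in any pig. In OO liver it ranged from 0.0358 to 1.5 CPM with a median of 0.805. Of the 6 OO pigs, 5 lay above every control pig, and pig OO-99 had a single read pair. The ratio of the pooled counts was 34.7 (exact 95% interval 13.2 to 129, counting error only).

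GABRQ was the most abundant of the 7 in every liver diet, also per kb of exon. Control pigs ranged from 5.6 to 19.3 CPM with a median of 9.34, and OO pigs from 49.7 to 105.1 CPM with a median of 76.9. The groups did not overlap, and the fitted log2 difference was 2.97 ± 0.35 (SE). Its OO values were also the least dispersed, with a coefficient of variation of 26.7%, against 95.2% for GAREM2 and 163% for TPPP.

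PAX2 ranged from 0.227 to 0.987 CPM in control liver (median 0.514) and from 1.18 to 4.65 CPM in OO liver (median 2.44). PLEKHG6 ranged from 0.208 to 0.869 CPM in control liver (median 0.584) and from 2.37 to 6.49 CPM in OO liver (median 4.61). Neither gene's groups overlapped. The fitted log2 differences were 2.25 ± 0.38 for PAX2 and 3.01 ± 0.31 for PLEKHG6 (SE).

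TPPP differed from the other 6 because its OO mean rested on 1 pig. Control pigs ranged from 0.852 to 2.16 CPM with a median of 1.05, and OO pigs from 0.302 to 25.7 CPM with a median near 2. Pig OO-102 had 619 read pairs, 6.14 times the CPM of the next OO pig, while pig OO-74, with 8 read pairs, lay below every control pig. Only 2 of 6 OO pigs were above the highest control pig. The fitted log2 difference of 2.28 ± 0.70 (SE) became 0.71 without pig OO-102.

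In the contrast that chose them, edgeR called 6 of the 7 genes higher with OO (adjusted p of at most 0.05 and at least 2-fold), TPPP not, against 0.788% of the 13831 genes tested, and no member lower, against 0.318%. DESeq2 called all 7. In 5 of the 7 every OO pig lay above every control pig, against 0.781% of genes. Nothing is read from these counts, since this contrast chose the genes.

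**Figure D1:**
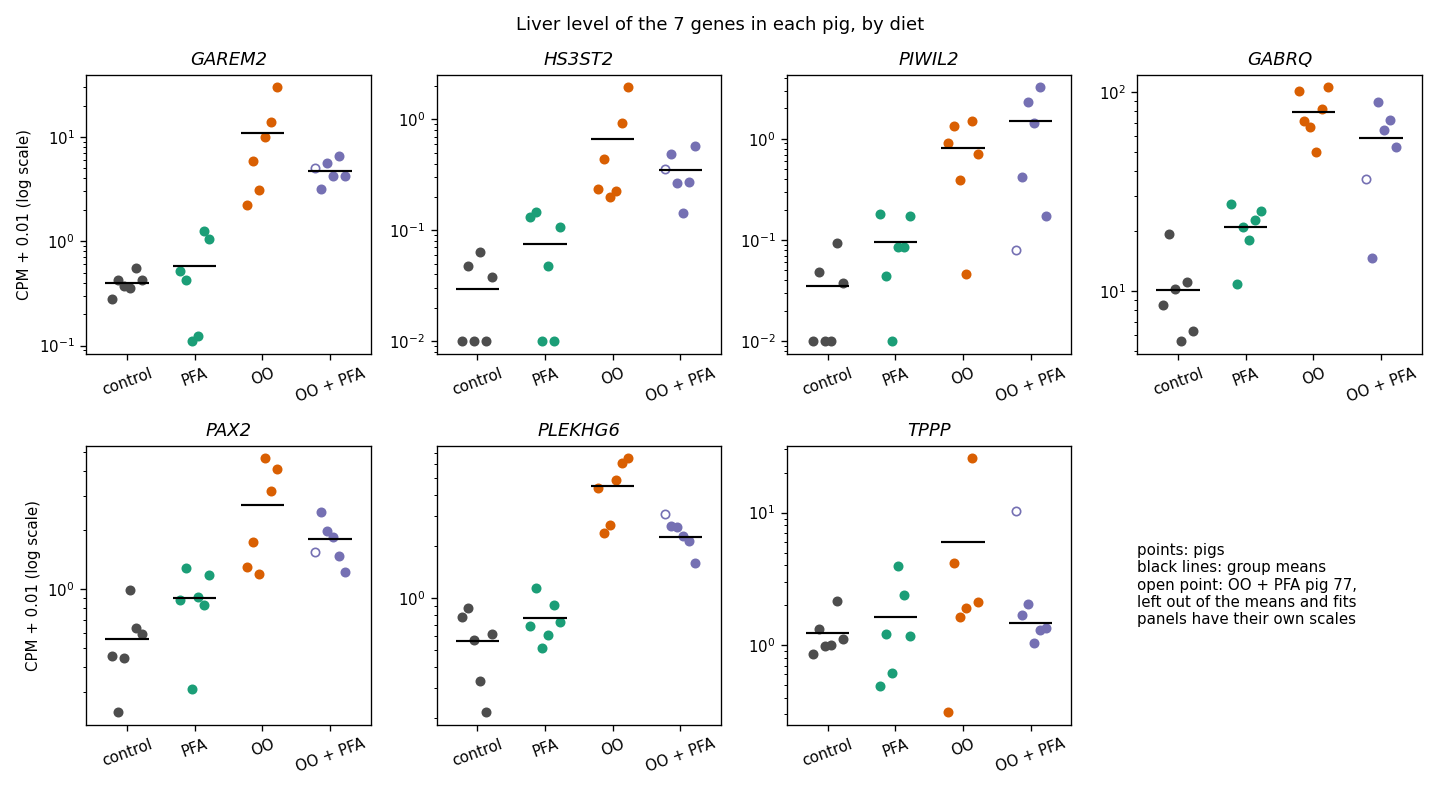
Level of each of the 7 genes in liver, as CPM + 0.01 on a log axis, for pigs fed control, PFA, OO and OO + PFA (6 pigs each, with the open point for pig OP-77, which is left out of the means drawn as black lines). The control and OO points do not overlap for GAREM2, HS3ST2, GABRQ, PAX2 and PLEKHG6, while for TPPP the OO mean is raised by 1 pig at 25.7 CPM.

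Since CPM does not account for gene length, levels were compared between genes as CPM per kb of annotated exon. In control liver the order was GABRQ with 1.39 ± 0.68, TPPP with 0.313 ± 0.122, PAX2 with 0.122 ± 0.0566, PLEKHG6 with 0.109 ± 0.0497, GAREM2 with 0.0795 ± 0.0183, HS3ST2 with 0.00847 ± 0.00992 and PIWIL2 with 0.00439 ± 0.00584 CPM per kb (SD, n = 6). PAX2, PLEKHG6 and GAREM2 lay within the larger SD of each pair of one another, as did HS3ST2 and PIWIL2. In OO liver, GABRQ was again first with 10.9 ± 2.90 CPM per kb, and GAREM2 was now second with 2.19 ± 2.08. TPPP followed with 1.52 ± 2.48, a value within the spread of its neighbours because of pig OO-102. PLEKHG6 had 0.88 ± 0.336, PAX2 0.596 ± 0.333, HS3ST2 0.279 ± 0.293 and PIWIL2 0.144 ± 0.0989 CPM per kb, each within its own SD of the next.

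The pigs that also received PFA gave a comparison in other livers than those of OO against control. The genes were chosen with earlier results of these data known, so it may not be independent of how they were chosen. This comparison asked whether the 7 genes were also higher with oxidized oil among PFA-fed pigs, and set 5 OO + PFA livers against 6 PFA livers. HS3ST2 and PIWIL2 had passed the low-count filter through the oil groups, so they are described apart from the other 5 genes. Of these 5, GAREM2, PLEKHG6 and GABRQ rose, and PAX2 and TPPP did not pass the test, against 0.875% of the 13831 genes tested that were called higher. No member was called lower, against 0.0868% of all genes. The middle log2 difference of the 5 genes was 1.49, against a median of 0.0027 over all genes.

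In this comparison PIWIL2 had the largest difference of the 7. The 6 PFA pigs ranged from 0 to 0.17 CPM with a median of 0.0749, and the 5 OO + PFA pigs had 0.162, 0.41, 1.43, 2.28 and 3.21 CPM. All OO + PFA pigs but pig OP-137, with 4 read pairs, lay above every PFA pig. The ratio of pooled counts, 198 against 17, was 16.0 with an exact 95% interval of 9.71 to 27.9 (counting error only). Since the filter kept PIWIL2 through the groups in which it was high, its test is given from a fit of all 19437 genes with a count, in which the log2 difference was 3.94 ± 0.75 (SE, edgeR quasi-likelihood test, adjusted p = 0.0072). DESeq2 gave it no adjusted p, and it was not tested when these 2 diets were fitted alone.

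GAREM2 was at 0.1 to 1.24 CPM in PFA liver (median 0.461) and at 3.16, 4.18, 4.26, 5.63 and 6.53 CPM in OO + PFA liver. The groups did not overlap, and the 5 OO + PFA pigs were closer together than the 6 OO pigs, with an SD of 1.33 against 10.3 CPM. The log2 difference was 3.03 ± 0.57 (SE, edgeR, adjusted p = 0.0054).

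PLEKHG6 ranged from 0.501 to 1.14 CPM in PFA liver (median 0.697), and the OO + PFA pigs had 1.58, 2.15, 2.3, 2.58 and 2.62 CPM. It was the other gene of the 7 whose groups did not overlap, against 4.69% of all genes tested. The log2 difference was 1.56 ± 0.31 (SE, edgeR, adjusted p = 0.0092).

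GABRQ ranged from 10.9 to 27.5 CPM in PFA liver (median 21.9), and the OO + PFA pigs had 14.7, 52.7, 64.3, 72.6 and 89 CPM. The lowest of these, pig OP-79, lay inside the PFA range and the other 4 lay above it. The log2 difference was 1.49 ± 0.34 (SE, edgeR, adjusted p = 0.027), and this call was lost when any of 6 of the 11 pigs was left out, with adjusted p between 0.053 and 0.075.

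HS3ST2 had 0 to 5 read pairs in PFA liver and 4, 6, 7, 14 and 15 in OO + PFA liver, at 0.133 to 0.568 CPM. In the fit without the filter the log2 difference was 2.16 ± 0.71 (SE, edgeR, adjusted p = 0.13), and 4 of 5 OO + PFA pigs were above every PFA pig. The ratio of its pooled counts was 4.85 with an exact 95% interval of 2.57 to 9.78 (counting error only). PAX2 ranged from 0.301 to 1.27 CPM in PFA liver and stood at 1.22, 1.47, 1.83, 1.98 and 2.46 CPM in OO + PFA liver, a log2 difference of 0.99 ± 0.38 (SE, edgeR, adjusted p = 0.14). For TPPP the OO + PFA pigs had 1.03 to 2.02 CPM, inside the PFA range of 0.485 to 3.94 CPM. Its log2 difference was -0.14 ± 0.72 (SE, edgeR, adjusted p = 0.92), so the high value of pig OO-102 had no counterpart among these 5 pigs.

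**Figure D2:**
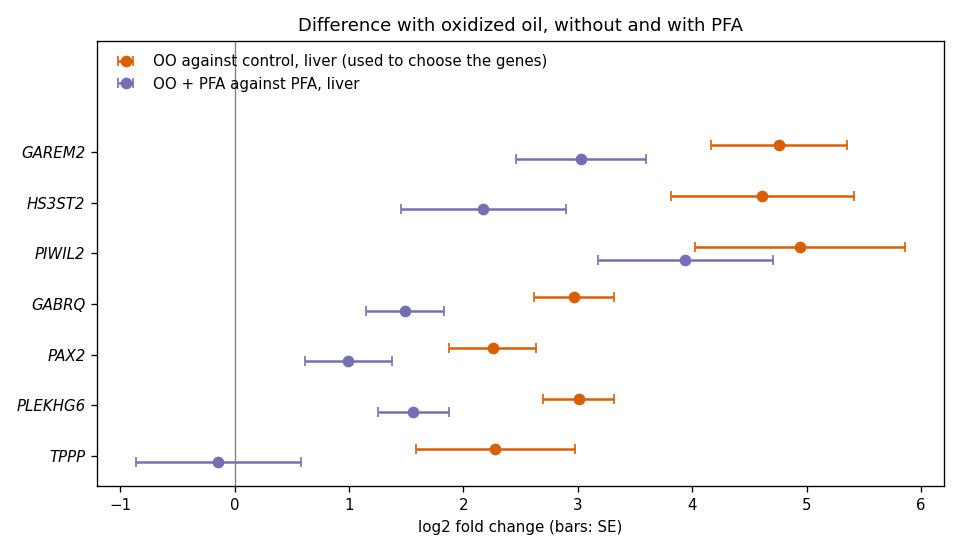
Log2 fold change of the 7 genes for OO against control, which was used to choose them, and for OO + PFA against PFA, in other livers, with bars of 1 SE. In OO + PFA against PFA the values run from -0.14 for TPPP to 3.94 for PIWIL2.

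The dependence of counts on base composition moved with this comparison. For each library, the slope of log2 CPM, relative to each gene's mean, was fitted on the GC content of the exons. This slope ran from -0.50 to 0.032 log2 units per 10 percentage points of GC in PFA liver and from 0.0044 to 0.45 in OO + PFA liver, and it ran from -0.23 to 0.059 in control and from -0.40 to 0.38 in OO liver. Among the 7, 5 genes have GC-rich exons, from 60.9% in PLEKHG6 to 65.7% in GAREM2, against a median of 51.2% over the tested genes with a GC value, while PIWIL2 has 46.4% and GABRQ 46.9%. Within diets, across the 23 liver libraries, the log2 level followed the slope with r = 0.73 for GAREM2, 0.70 for PAX2, 0.64 for HS3ST2, 0.52 for PLEKHG6 and 0.50 for TPPP, and with r = -0.12 for PIWIL2 and -0.17 for GABRQ. These correlations describe libraries that share their preparation and a slope that was estimated from the same counts. With the slope as a covariate, GAREM2 was called in OO + PFA against PFA, with a log2 difference of 2.19 (edgeR, adjusted p = 0.011), and PIWIL2, kept by the filter through the oil groups, had 4.01. PLEKHG6 had 1.19 and GABRQ 1.53, with adjusted p of 0.077 and 0.076, and HS3ST2 and PAX2 had 1.08 and 0.31. In OO against control the same covariate gave 1.38 for TPPP and values from 1.85 for PAX2 to 4.98 for PIWIL2 for the others, again with no test.

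PFA alone and PFA on top of OO share pigs with the contrasts above, so their values are given without a test. The genes were chosen as low in control liver and high in OO liver. That choice favours positive values against control and negative values against OO. Nothing is read from these signs or from the counts of pigs given here, whose share over all genes was not computed. For PFA against control in liver, the 7 log2 differences ran from 0.40 ± 0.69 for TPPP to 1.90 ± 1.11 for PIWIL2 (SE). GABRQ had 1.04 ± 0.33, with 4 of 6 PFA pigs above the highest control pig at 19.3 CPM. For OO + PFA against OO, PIWIL2 had 0.90 ± 0.63 and the other 6 had negative values, from -0.44 ± 0.34 for GABRQ to -2.02 ± 0.74 for TPPP (SE). In PLEKHG6, 5 of 6 OO pigs lay above the highest OO + PFA pig at 2.62 CPM. In GAREM2, 3 of 6 OO pigs lay above the highest OO + PFA pig at 6.53 CPM, and the 2 lowest OO pigs had 2.23 and 3.07 CPM. Whether oxidized oil acted differently with and without PFA was not tested.

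The same pigs did not lead in every gene. Among OO pigs, OO-130 was highest for GAREM2, HS3ST2, GABRQ and PLEKHG6, OO-102 for PIWIL2 and TPPP and OO-99 for PAX2. OO-99 was at the same time lowest for PIWIL2 and GABRQ. After the diet means were taken out, the log2 levels of the 7 genes over 23 livers correlated by at most 0.59, for GAREM2 with PAX2, followed by 0.54 for PIWIL2 with GABRQ and 0.51 for GAREM2 with HS3ST2. GABRQ with PAX2 gave r = -0.40. The pigs of these correlations share libraries, depth and the GC slopes given above.

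In the ileum the 7 genes stood at very different levels. PLEKHG6 and TPPP were abundant there, and GABRQ and PAX2 were near or at 0. Ileum libraries held 2 to 28 read pairs of HS3ST2, 3 to 18 of GAREM2 and 1 to 6 of PIWIL2. Ileum and liver were compared in the 5 PFA-fed pigs that gave both tissues, in a joint scaling of both tissues, and control-fed pigs are given as a description. The genes were chosen as low in control liver, and PFA liver was low as well, with means of 0.755 CPM for PLEKHG6 and 1.63 CPM for TPPP. That choice favours a call of higher in ileum, so such calls are not independent of it. CPM is scaled within each tissue, and the joint scaling lowered ileum against liver by a further 1.12 on the log2 scale in the mean, so CPM of ileum and of liver cannot be set side by side without this shift. The tissue labels held for their markers, since 8 of 8 hepatocyte genes were called lower and 6 of 6 enterocyte genes higher in ileum.

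PLEKHG6 was much higher in ileum. The 5 PFA-fed pigs had 45.9, 51.2, 60.4, 89.3 and 107 CPM in ileum, against 0.501 to 1.14 CPM in their livers. Every ileum value was above every liver value, also in the joint scaling, and the log2 difference of ileum minus liver was 5.38 ± 0.31 (SE, edgeR, adjusted p = 6.8e-09). In control-fed pigs the ileum held 46.9 to 145 CPM and the log2 difference was 6.36 ± 0.40.

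TPPP was higher in ileum as well, at 8.58, 11.2, 22.4, 22.5 and 31.2 CPM in PFA-fed pigs, with a log2 difference of 2.25 ± 0.47 (SE, edgeR, adjusted p = 8.9e-04). In control-fed pigs it had 11.4 to 24.9 CPM in ileum and a log2 difference of 2.90 ± 0.30. In the joint scaling the PFA-fed pigs had an ileum level of 5.71 to 21.2 CPM and a liver level of 0.891 to 5.65 CPM.

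GABRQ went the other way. Its ileum libraries held 0 or 1 read pair each, 2 in all in the 5 PFA-fed pigs, whose livers held 2596. Per read pair counted on genes, the ratio of liver to ileum was 1010 with an exact 95% interval of 279 to 8347 (counting error only). GABRQ did not pass the low-count filter in ileum and entered the tissue comparison through liver, so its call there, lower in ileum, adds nothing to these counts. Of all genes tested, 22.6% were called higher and 21.7% lower in ileum, so a call in this comparison is common.

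PAX2 had 0 read pairs in all 10 ileum libraries. Against a limit of 3 counts per library, its liver level in the 5 PFA-fed pigs, 125 read pairs in all, was at least 6.49-fold higher per read pair counted on genes. HS3ST2 had 2, 4, 9, 18 and 28 read pairs in the ileum of the 5 PFA-fed pigs and 0 to 4 in their livers, with an ileum level of 0.546 ± 0.43 CPM (SD, n = 5). GAREM2 had 0.38 ± 0.133 CPM and PIWIL2 0.153 ± 0.107 CPM in PFA-fed ileum (SD, n = 5). These 4 genes did not pass the low-count filter of the tissue comparison. Without the filter, 7547 of 19530 genes were called in either direction, so a call there is common. PAX2 and GAREM2 were then called lower and HS3ST2 higher in ileum (edgeR, adjusted p from 5.6e-06 to 0.037). The choice of genes low in control liver favours the call of HS3ST2. GABRQ was called lower as well (edgeR, adjusted p = 2.6e-11). PIWIL2 was not called, with a log2 difference of -0.035 ± 0.67 (SE, edgeR, adjusted p = 0.97).

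**Figure D3:**
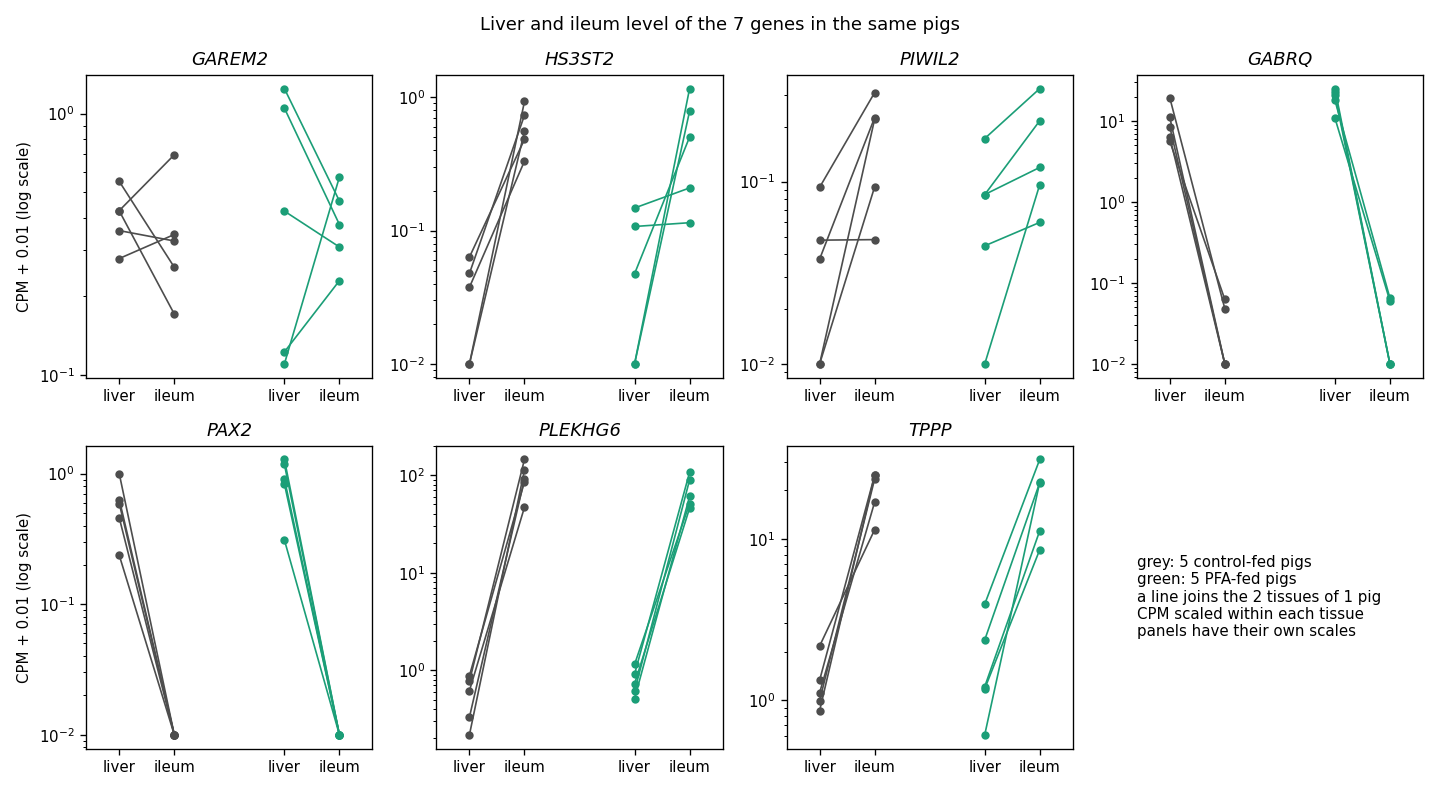
Liver and ileum level of the 7 genes in 5 control-fed and 5 PFA-fed pigs, as CPM + 0.01 on a log axis, with a line joining the tissues of 1 pig and CPM scaled within each tissue, which the joint scaling would lower by 1.12 (log2) in ileum against liver. PLEKHG6 and TPPP rise from liver to ileum in each pig, and GABRQ and PAX2 fall to 0 or near 0 in each pig.

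PFA did not give a call for any of the 3 members that could be tested in ileum. PLEKHG6 was at 96.5 ± 36.2 CPM in control and 70.8 ± 26.3 CPM in PFA ileum (SD, n = 5), a log2 difference of -0.45 ± 0.30 (SE). TPPP was at 20.3 ± 5.96 and 19.2 ± 9.22 CPM, and HS3ST2 at 0.597 ± 0.231 and 0.546 ± 0.43 CPM (SD, n = 5). With edgeR, adjusted p lay between 0.991 and 0.995, and none of the 3 had an unadjusted p under 0.05. Over all 14300 genes tested, 0% were called, 401 had an unadjusted p under 0.05, and DESeq2 called 1 gene and none of the 3 members.

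The 7 genes were set beside 80 relatives in their families and pathways, of which 43 passed the filter in liver. None of the 43 was called in OO against control, where edgeR called 0.788% of all genes higher and 0.318% lower. None was called in OO + PFA against PFA, where edgeR called 0.875% higher and 0.0868% lower. At these shares the lack of calls, here and family by family below, is no result about the relatives. In these contrasts 8 and 10 of the 43 had an unadjusted p under 0.05, beside 2956 and 3248 of all 13831 genes tested. DESeq2 called 2 in OO against control, HS3ST3B1 and HS3ST6, and none in OO + PFA against PFA.

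Among the heparan sulfate enzymes, 17 relatives of HS3ST2 were tested, with a median log2 difference of 0.039 for OO against control and -0.059 for OO + PFA against PFA. The enzymes that build and modify the bulk of the chain were abundant and had values near 0, as for the polymerase EXT1 with 106 CPM in control liver and a log2 difference of 0.039. Values in the 3-O-sulfotransferase family varied, with log2 differences for OO against control of 0.23 ± 0.27 for HS3ST1 and 1.64 ± 0.60 for HS3ST3A1 (SE). HS3ST4 and HS3ST5 did not pass the filter in liver. HS3ST3B1 had 0.0393 ± 0.0344 CPM in control and 0.752 ± 1.13 CPM in OO liver (SD, n = 6), a log2 difference of 3.95 ± 1.28 (SE, edgeR, adjusted p = 0.082). HS3ST6 had 0.343 ± 0.216 and 1.71 ± 1.86 CPM (SD, n = 6), a log2 difference of 2.27 ± 0.76 (SE, edgeR, adjusted p = 0.093). In OO + PFA against PFA, HS3ST3B1 had 1.76 ± 1.03 and HS3ST6 1.64 ± 0.75 (SE, edgeR, adjusted p = 0.30 and 0.19). There HS3ST3A1 had 0.85 ± 0.57 and HS3ST1 0.43 ± 0.28 (SE).

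Of the PIWI pathway, 14 relatives of PIWIL2 were in the tables and 4 were tested, with none called. PIWIL4, the other PIWI protein in the tables, stayed at 0.217 CPM in control and 0.255 CPM in OO liver. The nuclease PLD6 and the cofactor FKBP6 were at 0 in control and OO liver, and the RNA helicase DDX4 had 0.489 and 0.502 CPM. MAEL, a piRNA pathway protein of the germ line that did not pass the filter, was at 0 in control, PFA and OO + PFA liver and at 0.116 ± 0.25 CPM in OO liver (SD, n = 6), with at most 0.623 CPM in a pig. The median log2 difference over the 4 tested was 0.11 for OO against control.

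GABRQ was alone in its level among GABA-A receptor subunits in liver. Of 17 others, 3 were tested and none called, and no subunit other than GABRQ reached 4 CPM in any liver library. GABRB2, the highest of them, had 1.06 CPM in control and 1.67 CPM in OO liver. The subunits GABRA5, GABRA6 and GABRG3 were among those at 0 in control and OO liver. In 5 tested in the tissue comparison 2 were called higher and 3 lower in ileum.

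No relative was called in the other families either. PAX5, a B cell factor, was the only other PAX gene tested in liver, with a log2 difference of 0.27 for OO against control. Of the other PLEKHG exchange factors, PLEKHG1, PLEKHG2, PLEKHG3 and PLEKHG5 were tested, with log2 differences from -0.49 to 0.60 for OO against control. GAREM1, the paralogue of GAREM2, was abundant at 40.4 ± 4.17 CPM in control liver and 34.2 ± 4.65 CPM in OO liver (SD, n = 6, log2 difference -0.24 ± 0.16), and its partner GRB2 had 35.7 ± 3.74 and 44.8 ± 7.12 CPM. Relatives of TPPP, with TPPP3 and the tubulin acetyltransferase ATAT1, had a median log2 difference of -0.35 for OO against control over 4 genes. The medians over all genes were 0.060 for OO against control and 0.0027 for OO + PFA against PFA.

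**Figure D4:**
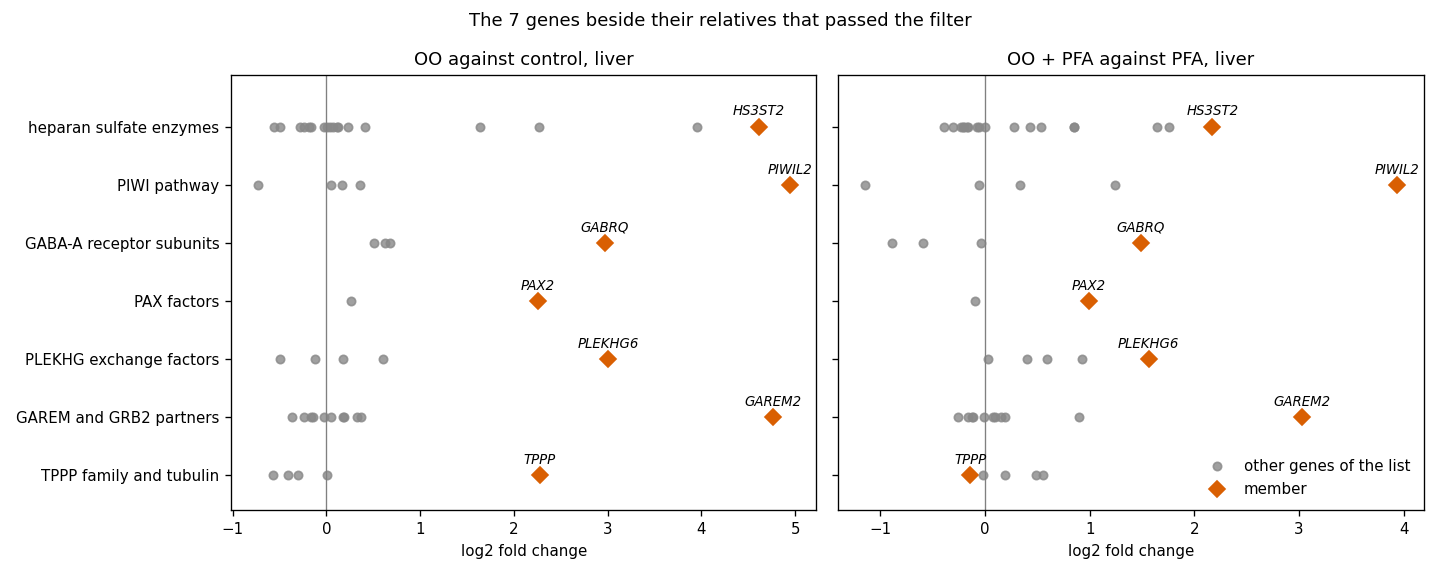
Log2 fold change in liver of each of the 7 genes (diamonds) and of the relatives in its list that passed the filter (grey points), for OO against control on the left, which chose the 7, and OO + PFA against PFA on the right. In the left panel the grey points below the top row lie between -0.73 and 0.67, and in the top row HS3ST3B1 reaches 3.95.

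Markers of the tissues in which these genes are best known had low sums in liver. The 8 kidney tubule markers summed to 0.0244 to 0.314 CPM per control liver and 0.0378 to 0.234 CPM per OO liver, with UMOD at 0 in both. The 6 germ cell markers summed to 0.378 to 0.966 CPM in control and 0.234 to 1.33 CPM in OO liver, with TEX101 and ODF1 at 0 in both and MAEL at 0 in control but not in OO. For 8 neuron markers the sums were 0.359 to 3.41 CPM in control and 0.491 to 2.36 CPM in OO liver. Bile duct markers (6 genes) summed to 30.3 to 45.6 CPM in control and 34.7 to 76 CPM in OO liver, and those of immune cells (6 genes) to 128 to 364 and 267 to 379 CPM, with none called. The 8 hepatocyte markers summed to 90380 to 167100 CPM in control and 103100 to 134400 CPM in OO liver. SERPINA1 was the only one of 46 tested marker genes called with edgeR in OO against control, lower in OO (log2 difference -1.25 ± 0.27, edgeR, adjusted p = 0.015). Its level was low for a hepatocyte marker, at 3.09 ± 0.956 CPM in control and 1.29 ± 0.379 CPM in OO liver (SD, n = 6). Both lie below the median of 11.2 CPM over tested genes in control liver. In OO + PFA against PFA only APOA4, an apolipoprotein listed as an enterocyte marker that liver also makes, was called (log2 difference 4.16 ± 0.89, edgeR, adjusted p = 0.016), at 156 ± 290 CPM in OO + PFA liver (SD, n = 5). This rested on pig OP-137 at 675 CPM, without which the mean was 26.4 ± 14.5 CPM (SD, n = 4) and the call was lost (log2 difference 1.59 ± 0.57, edgeR, adjusted p = 0.18). Of the other enterocyte markers, SI and FABP6 were at 0 in OO + PFA liver, and mean levels were 0.0157 CPM for FABP2, 3.14 CPM for SLC5A1 and 7.58 CPM for VIL1.

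The genes most like each member in liver were found by Pearson correlation of log2 CPM over the 23 livers, as a description, since the livers share diets and base composition slopes. For GAREM2 they were ACADVL (r = 0.95), PMM1, DHRS4, MLYCD and CRAT, of which ACADVL opens mitochondrial oxidation of very long chain fatty acids, MLYCD degrades malonyl-CoA and CRAT moves acetyl groups to carnitine. For HS3ST2 they were CRAT (r = 0.90), PCK2, PLEKHF1, MLYCD and ILVBL. For GABRQ they were RMDN1 (r = 0.93), PEX11A, ABCD3, ELOVL2 and CPT1A, of which PEX11A and ABCD3 are peroxisomal membrane proteins and CPT1A admits fatty acids to mitochondria. PLEKHG6 was most like DHRS4 (r = 0.92), ACADVL, ASNS, CPT1A and RMDN1. For PIWIL2 they were SLC1A1 (r = 0.89), PPM1K, RNF128, TP53INP2 and STARD6, and for PAX2 they were KIF7 (r = 0.93), MGLL, PLIN1, LRP10 and CTDP1, of which MGLL and PLIN1 act on stored lipid. TPPP was least well matched, with ASB9 (r = 0.79), RFX2, CACNA1H, PALLD and CAVIN1.

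Within diets the likeness was weaker for most of these genes. ACADVL with GAREM2 fell from 0.95 to 0.69 and DHRS4 with PLEKHG6 from 0.92 to 0.30 once diet means were taken out. KIF7 with PAX2 kept 0.84, and ASB9 with TPPP kept 0.77. ACADVL itself had 90.8 CPM in control and 247 CPM in OO liver, and a log2 difference of 1.23 ± 0.16 (SE) in OO + PFA against PFA. It was picked for its correlation with GAREM2 over these same livers, so this difference is a description and no test.

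Reads from neighbouring genes could enter the counts where genes lie close, and the counting's strand setting is not given in the sources used here. The annotated 3′ end of GAREM2 lies 1723 bases from that of HADHA, on the opposite strand. HADHA, a subunit of the mitochondrial trifunctional protein of fatty acid oxidation, had 180.5 ± 36.8 CPM in control and 386 ± 90.7 CPM in OO liver (SD, n = 6). GAREM2 counts were 0.161% to 0.277% of those of HADHA in control liver and 0.709% to 5.44% in OO liver. The part of HADHA reads in these counts was not tested. PLEKHG6 overlaps TNFRSF1A, on the opposite strand, by 410 bases. TNFRSF1A had 49.5 ± 7.03 CPM in control and 56.6 ± 11.5 CPM in OO liver (SD, n = 6), and PLEKHG6 counts were 0.45% to 2.17% of its counts in control and 4.84% to 9.31% in OO liver. PIWIL2 lies 6961 bases from SLC39A14 on the same strand, whose log2 difference was -0.18 ± 0.16 for OO against control.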

How the data were processed

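The authors sequenced stranded poly(A) libraries, aligned the reads with STAR 2.6.1d to Sscrofa11.1 and used HTSeq to count the pairs falling on each Ensembl gene. They deposited these counts as whole numbers without normalization, and the single-sample files hold the same counts as the series tables. The annotation release and strand option are not given in the sources used here. HTSeq's totals for read pairs on no gene were left out of library sizes.

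The 7 members and all gene lists were chosen with earlier results of these data known. Counts were analysed in R 4.3.3 with edgeR 4.0.16 (TMM scaling, filterByExpr, quasi-likelihood test, two-sided, Benjamini-Hochberg over all genes kept), and calls needed an adjusted p no higher than 0.05 together with a change of 2-fold or more. Standard errors are the log2 fold change over the root of the quasi-likelihood F. The liver fit held 23 libraries of 4 diets, the ileum fit 10, and the tissue fit 10 libraries of the 5 PFA-fed pigs. CPM is scaled by TMM within a tissue, that of pig OP-77 in a scaling of all 24 livers, and a prior count of 2 went into log2 CPM. DESeq2 1.42.0 was an alternative. Symbols came from a gene name table, and positions, exons, GC content and promoters from RefSeq on Sscrofa11.1. GC content was found for 78.8% of the genes tested in liver, so slopes on GC content rest on those genes. Tables and plots used Python 3.11.15, numpy 2.4.6, pandas 2.3.3, scipy 1.17.1 and matplotlib 3.10.9. The joint levels of both tissues, the fits of APOA4, SERPINA1 and ACADVL without each pig, the ileum GC slope and the OO against control alternatives were added after seeing the data. The steps were tested on simulated counts. p-values measure the spread between pigs of 1 pen. Same-numbered ileum and liver libraries come from the same pig, and the correlations of their deviations were 0.274, 0.473, -0.212, 0.113 and 0.107 over the 5 pigs.

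The genes named are the 7 members, genes of the family and marker lists, neighbours on the genome and, per member, the 5 genes with a symbol that had the highest correlation with it. HS3ST3B1, HS3ST6, MAEL and APOA4 were singled out after their values were seen. The alternatives were other scaling, DESeq2, dropping the filter, a minimum of 10 counts per library, all 24 livers, 2 diets alone, the form of the library title or a GC slope as a term, a replicate block and leaving out each pig. The GC slope in the ileum and in OO against control, and leaving out pigs of OO against control, were added after seeing the data. Quantitative PCR was not analysed here.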

Additional observations from a re-analysis of the deposited data

Results flagged for a closer look

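Of 42 groups of values (7 genes in 6 groups), 2 held a pig far from the others by Dixon's test, which chance does in about 1 of 20 groups, and both were of TPPP. Pig OO-102 had 25.7 CPM (619 read pairs) in liver against 4.19 CPM for the next OO pig. Pig C-100 had 2.16 CPM (52 read pairs) against 1.32 CPM for the next.

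Pig OP-77, left out of the fits, lay above every control liver for 6 of the 7 genes. It had 5.04 CPM of GAREM2, 0.35 CPM of HS3ST2, 36.5 CPM of GABRQ, 1.54 CPM of PAX2, 3.08 CPM of PLEKHG6 and 10.2 CPM of TPPP. For PIWIL2 it had 1 read pair. Its GC slope of 0.64 log2 units per 10 percentage points was above those of the other 23 livers, and the part of this slope in its values was not tested.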

How the results depend on the processing

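For OO + PFA against PFA, 4 of the 7 genes were called, PIWIL2 among them after passing the filter through the oil groups, and 3 or 4 with RLE scaling, DESeq2, no filter, all 24 livers, 2 diets alone or a title term. DESeq2 gave PIWIL2 and HS3ST2 no adjusted p, and with 2 diets alone neither passed the filter. With at least 10 counts in every library, 1 was called, because only GABRQ could be tested, and with the GC slope as a covariate 2 were called. Leaving out each pig gave 3 to 4. TPPP turned to 0.82 with all 24 livers and to 0.34 without pig P-107, from -0.14, and ran from -0.34 to 0.34 as each pig was left out. Over all genes, 133 were called, against 270 with DESeq2, 594 with all 24 livers, 372 with 2 diets alone and 56 with the GC slope, and the cause was not tested. In the ileum, 0 members were called under each alternative run, also when each pig was left out (0 to 0). HS3ST2 changed sign to 0.20 with the GC slope, to 0.14 without pig P-138 and to 0.091 without pig C-71 or P-75, and TPPP to 0.055, 0.10 (without pig P-138) and 0.057 (without pig P-75). As each pig was left out, HS3ST2 ran from -0.59 to 0.14 and TPPP from -0.33 to 0.10. Ileum against liver gave 3 calls, that of GABRQ kept by the filter through liver, and 3 to 4 when each pig was left out. Without the filter it gave 6, since 4 more genes were then tested, beside 7547 of all 19530 genes. With the replicate block, pairing the tissues of each pig, 3 were called, and no call of a member changed. For OO against control, TPPP moved to 0.71 without pig OO-102. Depth limits HS3ST2 and PIWIL2, which had at most 2 read pairs in any control liver.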
